A study of Mus musculus with 7 samples.

Results

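The genes described here are 10 genes that mark contractile smooth muscle, myofibroblasts and pericytes, among the 55450 genes that were counted in dorsal skin. The rule that names them uses no measured value. The contractile genes are Acta2, Tagln, Myh11, Cnn1, Actg2, Myl9 and Lmod1, and the pericyte genes are Rgs5, Mcam and Cspg4. All 10 passed the expression filter and were tested, among 17959 genes tested in all. The skin came from male C57BL/6 mice aged 24 months, with 1 sequencing library for each mouse. The treated group (3 mice, numbers 476 to 478) received topical ABT-263 at 5 µM, a drug that blocks the survival proteins Bcl-2 and Bcl-xL, for 5 days. The control group (4 mice, numbers 480 to 483) received the vehicle DMSO alone for the same 5 days. In both groups the back was clipped and depilated beforehand, and a film dressing covered the site. Expression is given in CPM, the counts of a gene scaled to a fixed library total, after TMM normalization, and a gene was called changed at an adjusted p-value below 0.05 from edgeR's quasi-likelihood test with Benjamini-Hochberg adjustment over all genes tested. SE is the standard error of a log2 fold change.

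Library totals lay between 20344364 and 26824123 counted read pairs after DMSO and between 27325963 and 43562330 after ABT-263, so each treated mouse was sequenced more deeply than each control. The keratins that define epidermis were abundant in every mouse, with Krt5 at 3356 to 9150 CPM, Krt14 at 8427 to 24884 CPM and Krt10 at 2492 to 10358 CPM. The tissue also held skeletal muscle RNA, since 17 genes of skeletal muscle summed to 36068 to 95341 CPM. Over all genes tested, the median log2 fold change was 0.00223.

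Smooth muscle shortens when myosin pulls on actin filaments, a step that is switched on by phosphorylation of the myosin regulatory light chain. Most contractile genes of smooth muscle are known targets of serum response factor (SRF), which binds a short DNA element called the CArG box. In skin, such cells form the arrector pili muscles of the hair follicles and the walls of arteries and veins, and fibroblasts that turn into myofibroblasts during repair also make smooth muscle actin. Pericytes embrace capillaries and share part of this program with vascular smooth muscle. Whole skin was sequenced, so that fewer cells of a type and less RNA per cell cannot be told apart in any of the values.

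The CArG box is the element through which SRF is known to act, so the matches found near the start sites of the genes are printed here. RefSeq start site windows (GRCm38.p6) were found for 7 of the 10 genes, and the 250 bases upstream of each were searched on both strands. The contractile genes Tagln, Myh11 and Actg2 had no window and were not searched. The 7 include the pericyte genes Rgs5, Mcam and Cspg4. The box has a pair of C bases, a core made only of A and T, and a pair of G bases. A full match was present in 1 of these 7 windows, that of Myl9, against 1.47% of all 32851 windows. With 1 base of the core allowed to differ, 2 of the 7 windows held a match, those of Myl9 and Acta2, against 8.59% of all windows. The stretch of Myl9 lies at chr2:156775214-156775419 on the plus strand and covers the bases from 250 to 45 upstream of the start site. The stretches of Acta2 are each 30 bases on the minus strand, at chr19:34255438-34255467 and chr19:34255388-34255417. Capitals mark the boxes, of which the first of Myl9 is the full match and each of the others has 1 changed core base. The Myl9 boxes stand 161 to 152 and 99 to 90 bases upstream of the RefSeq start site, and the Acta2 boxes 84 to 75 and 34 to 25 bases upstream of it. The annotation used for gene positions places Acta2 at 34241090 to 34255590, so both Acta2 boxes lie inside the annotated gene. The longest run of the Acta2 window outside an annotated exon of the gene is 33 bases.
Myl9: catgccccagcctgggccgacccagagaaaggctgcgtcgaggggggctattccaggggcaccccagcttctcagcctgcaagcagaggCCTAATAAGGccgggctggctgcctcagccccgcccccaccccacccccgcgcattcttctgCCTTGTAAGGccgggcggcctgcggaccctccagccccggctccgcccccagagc
Acta2, upstream box: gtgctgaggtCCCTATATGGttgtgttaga
Acta2, downstream box: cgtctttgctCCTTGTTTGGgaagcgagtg
No match was found in the windows of Cnn1, Lmod1, Rgs5, Mcam and Cspg4. These matches describe letters in a window, and binding was not measured.

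Levels of different genes were compared per kilobase of annotated exon. In DMSO-treated skin the highest were Tagln (62.8 CPM per kilobase, 45.7 to 76.8 over the 4 mice), Myl9 (57.3, from 47.2 to 68.5) and Acta2 (56.6, from 49.0 to 62.8), and the ranges of these 3 overlapped. The pericyte genes Rgs5 (16.8 CPM per kilobase, 12.2 to 20.8) and Mcam (12.3, from 8.43 to 14.8) followed, with ranges that overlapped each other and no contractile gene. Below them stood Actg2 (5.80 CPM per kilobase), Lmod1 (4.15), Cspg4 (3.31), Myh11 (2.66) and Cnn1 (2.35), and within this group each gene's range overlapped that of its neighbour. After ABT-263 the same 3 genes led, at 64.3 for Acta2, 62.3 for Tagln and 46.3 for Myl9. Mcam then averaged 25.3 CPM per kilobase and Rgs5 23.6, while Actg2 averaged 2.95 and Myh11 4.30.

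**Figure D1:**
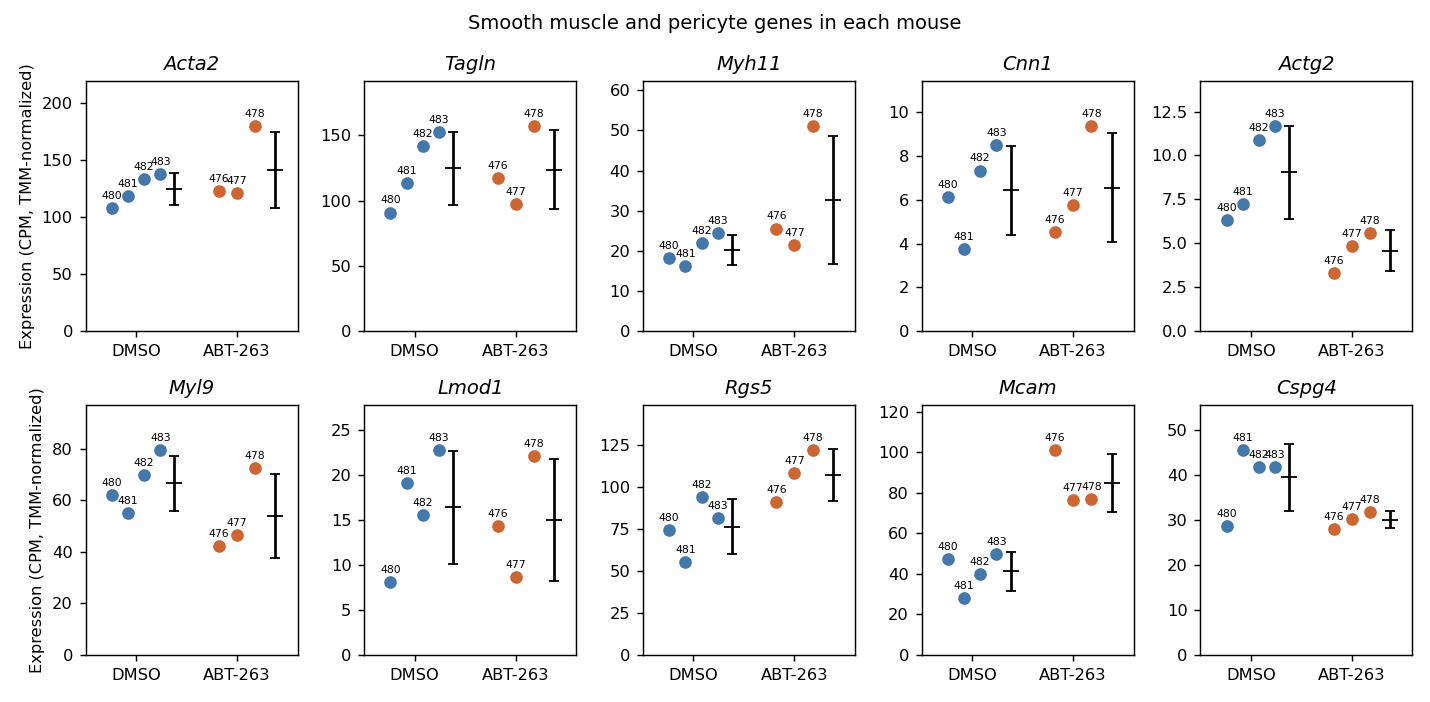
Expression (TMM-normalized CPM, vertical axis from 0) of the 10 genes in each of the 4 DMSO-treated and 3 ABT-263-treated mice, 1 point per mouse with its number, and the mean with SD beside each group. Mcam lies higher and Actg2 lower in all 3 ABT-263-treated mice than in any DMSO-treated mouse, and the groups overlap for the other 8 genes.

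Of the 10 genes, 1 was called higher after ABT-263 (Mcam), 1 was called lower (Actg2) and 8 were not called. Over all genes tested, 12.4% were called higher and 11.7% lower, so the share of the 10 genes that was called is near that background in each direction. Their median log2 fold change was 0.01, and 5 of the 10 fold changes were positive. The groups did not overlap for the same 2 genes, against 37.1% of all genes tested.

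The filament proteins come first. Acta2, which encodes smooth muscle alpha-actin (chromosome 19, 34241090 to 34255590, GRCm38), was at 108, 118, 133 and 138 CPM in the DMSO-treated mice and at 123, 121 and 180 CPM in the ABT-263-treated mice. Of the treated mice, only mouse 478 lay above the control range. Control mice averaged 124 ± 14.0 CPM (SD, n = 4) and treated mice 141 ± 33.3 CPM (SD, n = 3), and the log2 fold change was 0.18 (SE 0.18, 95% interval -0.22 to 0.59, edgeR adjusted p = 0.472). That interval runs from 0.856-fold to 1.51-fold, so a change of 2-fold in either direction lies outside it. Without mouse 478 the log2 fold change of Acta2 was -0.02.

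Actg2, the gamma-actin best known from visceral smooth muscle (chromosome 6, 83512905 to 83536265), was at 6.34, 7.25, 10.9 and 11.7 CPM after DMSO and at 3.29, 4.87 and 5.61 CPM after ABT-263. Every treated mouse lay below every control mouse, on raw counts of 92 to 284 per library. No 75-base stretch of this or of the other 9 transcripts was shared in sense with another gene. The mean fell to 4.59 ± 1.18 CPM (SD, n = 3) from 9.04 ± 2.63 CPM in the controls (SD, n = 4), and the log2 fold change was -0.97 (SE 0.30, 95% interval -1.65 to -0.30, edgeR adjusted p = 0.0457). A two-sided exact permutation test of the mean log2 CPM gave p = 0.0571, and the smallest value possible with 4 mice against 3 is 0.0286. The call stood near the threshold: of the 7 fits that each left out 1 mouse, only the one without DMSO-treated mouse 480 kept it (edgeR adjusted p = 0.0332), and the log2 fold change ran from -1.14 to -0.78 over them. It was also lost when genes with as little as 1 count were tested too (edgeR adjusted p = 0.0535) and when the counts were thinned to the smallest library (edgeR adjusted p = 0.0501).

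Myh11, the smooth muscle myosin heavy chain and the motor of the filament (chromosome 16, 14194535 to 14291372), was at 18.2, 16.3, 21.9 and 24.5 CPM after DMSO and at 25.6, 21.5 and 51.0 CPM after ABT-263. Mouse 478 stood far above all the other mice, and mouse 477 lay within the control range. Control mice averaged 20.2 ± 3.69 CPM (SD, n = 4) and treated mice 32.7 ± 16.0 CPM (SD, n = 3), and the log2 fold change was 0.69 (SE 0.30, 95% interval 0.0013 to 1.39). The gene was not called (edgeR adjusted p = 0.124, exact permutation test p = 0.143, two-sided). Its estimate rested on single mice, since it was 0.22 (edgeR adjusted p = 0.491) without mouse 478 and 0.94 (edgeR adjusted p = 0.0496) without mouse 477.

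Myl9 encodes the regulatory light chain whose phosphorylation starts contraction (chromosome 2, 156775420 to 156781658), and its promoter sequence with both CArG boxes is printed above. It was at 62.0, 54.9, 70.0 and 79.6 CPM after DMSO and at 42.4, 46.4 and 72.5 CPM after ABT-263. Of the treated mice, 476 and 477 lay below every control mouse and 478 lay inside the control range. The log2 fold change was -0.31 (SE 0.22, 95% interval -0.80 to 0.19, edgeR adjusted p = 0.319).

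Lmod1, a leiomodin that starts new actin filaments (chromosome 1, 135324807 to 135368065), was at 8.14, 19.1, 15.5 and 22.8 CPM after DMSO and at 14.3, 8.60 and 22.1 CPM after ABT-263. The groups covered nearly the same range. The log2 fold change was -0.13 (SE 0.40), and its 95% interval of -1.06 to 0.80 was the widest of the 10 genes (edgeR adjusted p = 0.838).

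The remaining contractile genes encode proteins that bind along the actin filament. Tagln, or transgelin (chromosome 9, 45929619 to 45936058), was at 90.9, 113, 142 and 153 CPM after DMSO and at 117, 97.1 and 157 CPM after ABT-263. The groups overlapped almost fully, with means of 125 ± 28.0 CPM (SD, n = 4) and 124 ± 30.5 CPM (SD, n = 3). Its log2 fold change was -0.01 (SE 0.23, 95% interval -0.53 to 0.51, edgeR adjusted p = 0.977). The annotation places 40.9% of the 75-base stretches of Tagln opposite other genes on the other strand, and the authors counted reads on the gene's own strand. Cnn1, the calponin that slows the myosin motor (chromosome 9, 22099216 to 22109630), was at 6.14, 3.75, 7.34 and 8.50 CPM after DMSO and at 4.54, 5.77 and 9.37 CPM after ABT-263. It had the lowest level per kilobase of the contractile genes and also overlapped between groups, with a log2 fold change of 0.03 (SE 0.34, 95% interval -0.75 to 0.81, edgeR adjusted p = 0.956).

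**Figure D2:**
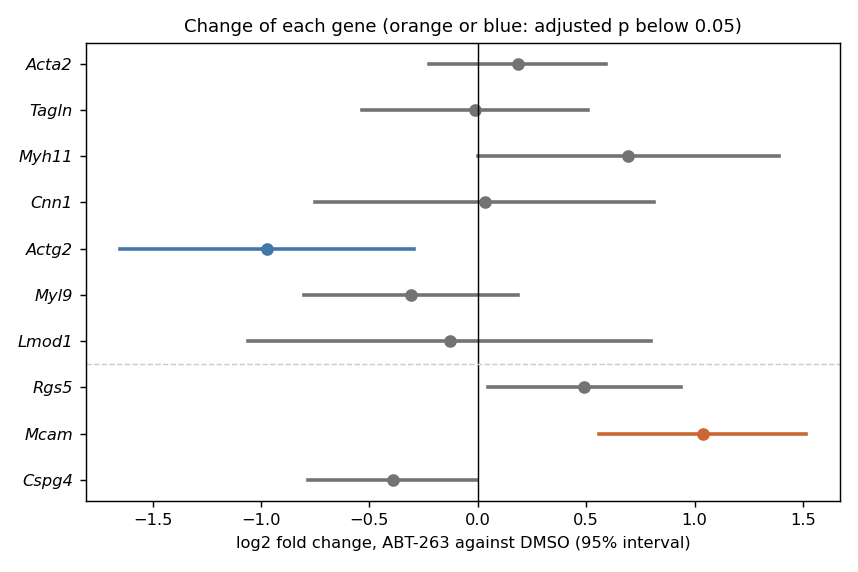
Log2 fold change of each gene, ABT-263 against DMSO (horizontal axis), with its 95% interval as a bar, contractile genes above the dashed line and pericyte genes below it. Mcam (1.04) and Actg2 (-0.97) are coloured as called, and the intervals of Myh11, Rgs5 and Cspg4 end just short of 0 without a call after adjustment.

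Within each group the contractile genes shared the mouse with the highest level, but not the mouse with the lowest. Mouse 483 had the highest level of the 4 DMSO-treated mice for 7 of the 7 contractile genes, against 22.2% of all genes tested. Among the 3 ABT-263-treated mice, 478 was the highest for 7 of 7, against 31.2% of all genes tested. The lowest DMSO-treated mouse was 480 for 4 of the genes and 481 for 3, and the lowest ABT-263-treated mouse was 477 for 4 and 476 for 3. Over all 7 mice, 478 was highest for 4 of these genes and 483 for 3. The summed level of the 7 genes was 299, 333, 401 and 437 CPM after DMSO and 330, 305 and 497 CPM after ABT-263, so the groups overlapped and the spread within each group was wide. Genes that share a mouse share its library and its piece of skin, and the shared highest mouse is given as a description without a test.

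**Figure D3:**
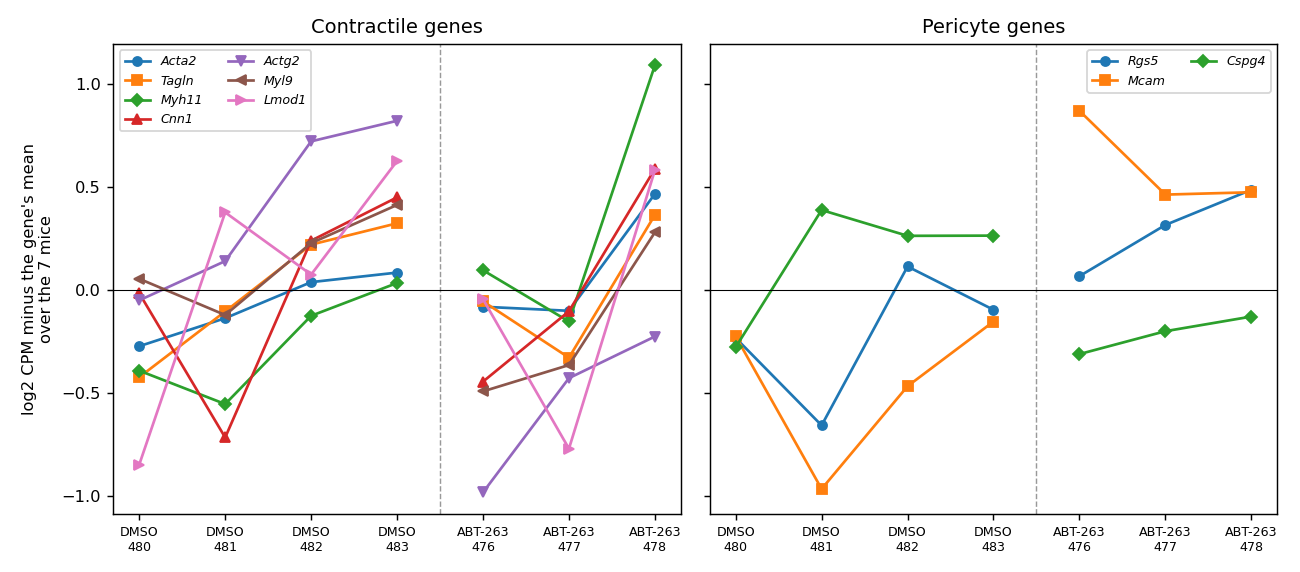
Log2 CPM of each gene minus that gene's mean over the 7 mice (vertical axis), for each mouse, with the contractile genes on the left and the pericyte genes on the right and a dashed line between the treatments. The contractile lines are highest at mouse 483 within DMSO and at mouse 478 within ABT-263, while Mcam is above 0 in all 3 ABT-263-treated mice.

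Of the pericyte genes, Mcam was called and Rgs5 and Cspg4 were not. Mcam encodes CD146, an adhesion molecule of the immunoglobulin superfamily that is found on pericytes and smooth muscle and also on endothelial cells (chromosome 9, 44134469 to 44142727). It was at 47.3, 28.2, 39.9 and 49.7 CPM after DMSO and at 101, 76.2 and 76.8 CPM after ABT-263. All 3 treated mice lay above all 4 control mice. Its mean of 84.7 ± 14.2 CPM (SD, n = 3) was 2.05-fold (95% interval 1.47 to 2.86) that of the controls, 41.3 ± 9.63 CPM (SD, n = 4), which is 1.04 on the log2 scale (SE 0.21, edgeR adjusted p = 0.0139). The two-sided exact permutation test gave p = 0.0286, the smallest possible. Mcam was called in 15 of 15 alternative fits, with log2 fold changes from 0.89 to 1.14.

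Endothelial genes moved with Mcam. Of 15 endothelial markers, 11 were called higher and 0 lower by edgeR, by the DESeq2 Wald test and by limma alike, and 0 were lower at an unadjusted p-value below 0.05, with a median log2 fold change of 1.03. Over all genes tested, edgeR called 12.4% higher and 11.7% lower. The summed level of the endothelial markers was 432 to 939 CPM after DMSO and 1252 to 1597 CPM after ABT-263. Mouse 481 had the lowest and mouse 476 the highest value both of this sum and of Mcam, and the endothelial part in the Mcam result was not tested. Cdh5, the cadherin of endothelial junctions, rose by a log2 fold change of 1.92 (edgeR adjusted p = 0.00622), the transcription factor gene Erg by 1.63 (adjusted p = 0.00726), and Tek, the angiopoietin receptor, by 1.41 (adjusted p = 0.00628). Pecam1, or CD31, was at 95.2 ± 31.8 CPM after DMSO (SD, n = 4) and rose to 194 ± 28.3 CPM after ABT-263 (SD, n = 3), or by 1.03 on the log2 scale (edgeR adjusted p = 0.028).

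Rgs5, a regulator of G-protein signalling and a standard pericyte marker (chromosome 1, 169655501 to 169695813), was at 74.2, 55.3, 94.4 and 81.6 CPM after DMSO and at 91.4, 108.6 and 122 CPM after ABT-263. The treated mice lay high, but mouse 476 was below DMSO-treated mouse 482. Means of 76.4 ± 16.4 CPM (SD, n = 4) and 107 ± 15.5 CPM (SD, n = 3) differed by 0.49 on the log2 scale (SE 0.19, 95% interval 0.05 to 0.94). The gene was not called (edgeR adjusted p = 0.0967, exact permutation test p = 0.0857, two-sided), in the main fit or in any of 15 alternatives, in which the log2 fold change ran from 0.32 to 0.61.

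Cspg4, the proteoglycan also called NG2 (chromosome 9, 56865033 to 56899870), was at 28.7, 45.6, 41.8 and 41.9 CPM after DMSO and at 28.1, 30.3 and 31.9 CPM after ABT-263. Mouse 480 was the one control mouse inside the treated range. The log2 fold change was -0.39 (SE 0.17, 95% interval -0.78 to -0.003, edgeR adjusted p = 0.123). Without mouse 480 it was -0.52 and was called (edgeR adjusted p = 0.0242). NG2 is also made by glial and pigment lineages. Schwann cell genes summed to 172 to 315 CPM after DMSO and 179 to 231 CPM after ABT-263, with 2 of 7 called lower, S100b among them, and melanocyte genes to 93.2 to 327 CPM and 23.1 to 64.5 CPM, with 1 of 6 called lower (Dct), against 11.7% of all genes tested. Their part in the Cspg4 values was not tested.

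Ratios of 2 genes within a mouse need no scaling between libraries, and these were examined after the single values had been seen. Of the 45 pairs among the 10 genes, 18 had ratios that did not overlap between the groups, which is 40.0% of the pairs, against 34.7% of the pairs among all genes tested. No pair passed adjustment over the 45 (smallest adjusted p = 0.117, exact permutation test). The smallest p this test can give with 4 mice against 3 is 0.0286. A pair could therefore pass only if most of the 45 stood at that value, and no conclusion is drawn from the result. Pairs with Actg2 made up 6 of the 18 and pairs with Mcam 4. The 3 ratios that follow were chosen after their values were seen and are given without a test. Myh11 to Myl9, the heavy chain against the light chain of the same motor, was 0.294, 0.296, 0.313 and 0.308 after DMSO and 0.602, 0.464 and 0.704 after ABT-263, a narrow range in the control mice and a higher one in the treated mice. The actin ratio of Acta2 to Actg2 was 17.0, 16.3, 12.3 and 11.8 after DMSO and 37.4, 24.9 and 32.0 after ABT-263. Mcam to Cspg4, both surface proteins of pericytes, was 1.65, 0.619, 0.955 and 1.19 after DMSO and 3.60, 2.51 and 2.41 after ABT-263.

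**Figure D4:**
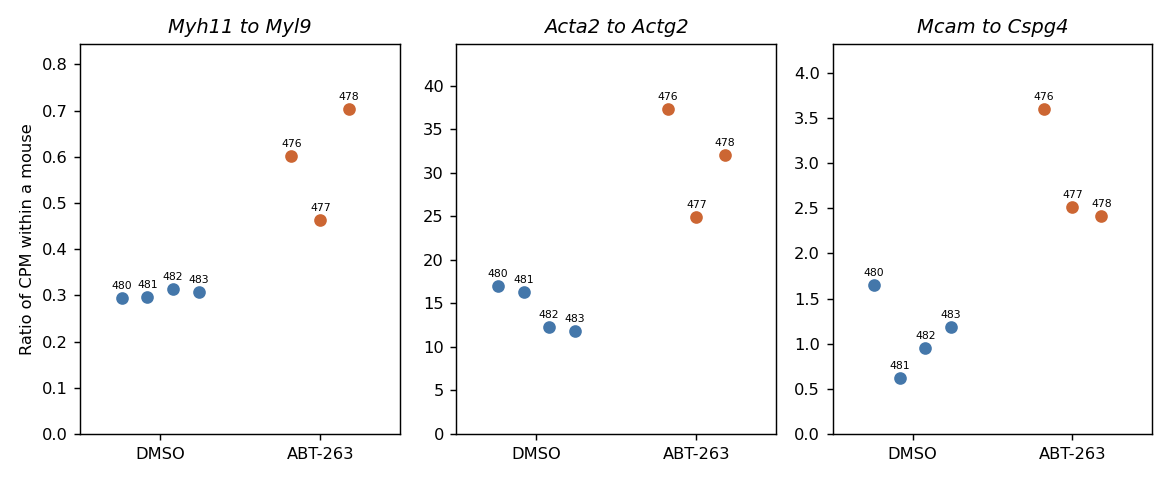
Ratio of the CPM of 2 genes within each mouse (vertical axis from 0) for Myh11 to Myl9, Acta2 to Actg2 and Mcam to Cspg4, 1 point per mouse with its number. In each panel the 3 ABT-263-treated mice lie above the 4 DMSO-treated mice.

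Other genes of the smooth muscle contractile apparatus were lower where they were called. Of 22 such genes tested, 6 were called lower and 0 higher, against 11.7% and 12.4% of all genes tested, with a median log2 fold change of -0.27. At an unadjusted p-value below 0.05 from edgeR 3 were higher, the DESeq2 Wald test called 2 higher after adjustment, and limma on variance-stabilized values called 0 higher. The 3 with the smallest p-values belong to the myosin motor or to the control of its phosphorylation. Mylk, the kinase that phosphorylates the regulatory light chain, was at 70.1, 67.8, 80.6 and 96.9 CPM after DMSO and at 38.3, 44.6 and 47.7 CPM after ABT-263, and so lay lower in every treated mouse (log2 fold change -0.86, SE 0.16, edgeR adjusted p = 0.0121). Myl6, an essential light chain that non-muscle cells also use, fell to 292 ± 28.7 CPM (SD, n = 3) from 462 ± 17.6 CPM in the controls (SD, n = 4), with an edgeR adjusted p of 0.0166. Ppp1r14a, an inhibitor of myosin phosphatase, fell to 14.2 ± 0.843 CPM (SD, n = 3) from 23.3 ± 3.73 CPM in the controls (SD, n = 4), with an edgeR adjusted p of 0.0199. The others, named after their values were seen, were the tropomyosin gene Tpm1 (log2 fold change -1.09), Nexn (-1.27) and Pdlim7 (-0.61), which act at actin filaments.

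Skeletal muscle moved with this list. Tropomyosin 1 and desmin are abundant in skeletal muscle too, and the 22 apparatus genes summed to 14031, 21572, 24573 and 24565 CPM after DMSO and 15629, 12213 and 14761 CPM after ABT-263. Most of that sum came from Tpm2, Tpm1 and Des, at means of 8045, 5534 and 5078 CPM after DMSO, so it does not measure smooth muscle alone. Among the control mice, Tpm1, Nexn and Pdlim7 were lowest in mouse 480, while Mylk, Myl6 and Ppp1r14a were not. Skeletal muscle markers summed to 49277, 82837, 71522 and 95341 CPM after DMSO and to 45035, 36068 and 49773 CPM after ABT-263, so that mouse 480 was the lowest control mouse for both sums. Of 17 skeletal muscle markers, 6 were called lower and 0 higher by edgeR, against 11.7% and 12.4% of all genes tested (median log2 fold change -0.76). Of the same markers, 0 were higher at an unadjusted p-value below 0.05 or by the DESeq2 Wald test or limma. The called markers with the smallest p-values were Pvalb (-3.33), Tnnc2 (-1.65) and Tnni2 (-1.28), while Myh4 (-0.46, edgeR adjusted p = 0.798) and Acta1 (-0.43, adjusted p = 0.348) were not called. The part of skeletal muscle in the apparatus values was not tested. Des, or desmin, had a log2 fold change of -0.11 (edgeR adjusted p = 0.835). The count of 6 was 1 without mouse 478, 2 without mouse 476, 482 or 483, 3 without mouse 477, 4 without mouse 481 and 9 without mouse 480. The calls over all genes tested were 4342 with all mice and fewer in each of these fits. They were 1735 without mouse 478, 1824 without mouse 482, 2063 without mouse 483 and 2228 without mouse 476. Without mouse 481, 477 or 480 they were 2837, 4026 and 4169.

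Srf, which encodes the factor known to bind CArG boxes, was at 39.9, 50.0, 52.7 and 62.0 CPM after DMSO and at 43.6, 35.7 and 41.1 CPM after ABT-263, so that the groups overlapped (log2 fold change -0.35, edgeR adjusted p = 0.149). Its smooth muscle coactivator Myocd was at 0 to 0.286 CPM after DMSO and at 0.0358 to 0.193 CPM after ABT-263, and did not pass the expression filter of the main test. Of the 8 regulators tested, 2 were called lower and 0 higher by edgeR (11.7% and 12.4% over all genes tested), and 2 were higher at an unadjusted p-value below 0.05, while the DESeq2 Wald test and limma each called 0 higher. Those called were the kinases that restrain myosin phosphatase, Rock1 (97.1 ± 11.6 CPM, SD, n = 4, against 55.6 ± 14.4 CPM, SD, n = 3, edgeR adjusted p = 0.0225) and Rock2 (78.5 ± 9.21 CPM, SD, n = 4, against 53.9 ± 3.89 CPM, SD, n = 3, edgeR adjusted p = 0.0252). For both kinases every treated mouse lay below every control mouse. The median log2 fold change of the 8 was -0.12.

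Further genes of pericytes and vascular mural cells had mostly positive fold changes, 16 of the 20 tested. Of these 20, 5 were called higher and 2 lower, with a median log2 fold change of 0.51. Over all genes tested, 12.4% were called higher and 11.7% lower, so the count called lower is near the background. Steap4, a metal reductase gene, rose from 13.9, 11.9, 12.1 and 17.3 CPM after DMSO to 139, 40.8 and 89.4 CPM after ABT-263 (6.50-fold, edgeR adjusted p = 0.00681), with a wide spread among the treated mice. Kcnj8, a subunit of the ATP-sensitive potassium channel of mural cells, was at 2.62, 4.85, 2.46 and 3.66 CPM after DMSO and at 11.5, 6.63 and 11.8 CPM after ABT-263 (log2 fold change 1.55, edgeR adjusted p = 0.0139). Gucy1b1, a subunit of the guanylate cyclase that senses nitric oxide, rose by a log2 fold change of 1.70 (edgeR adjusted p = 0.0138). Its partner subunit Gucy1a1 (2.16 ± 0.398 CPM, SD, n = 4, against 6.11 ± 2.62 CPM, SD, n = 3) and the connexin gene Gja4 (log2 fold change 0.89), which endothelial cells also use, were the other genes called higher and are named after their values were seen.

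Among the mural genes called lower was Ebf1, a transcription factor gene that is expressed outside mural cells as well. It was at 60.0 ± 14.9 CPM after DMSO (SD, n = 4) and at 30.8 ± 1.56 CPM after ABT-263 (SD, n = 3), with an edgeR adjusted p of 0.0161. The list's summed level was 1923 to 2683 CPM after DMSO and 1441 to 1875 CPM after ABT-263, a direction opposite to the list's median. The defining receptor genes were not called: Pdgfrb, the receptor for platelet-derived growth factor, had a log2 fold change of 0.65 (95% interval -0.03 to 1.34, edgeR adjusted p = 0.141) and Notch3 one of 0.11 (edgeR adjusted p = 0.61). The count of 5 was 1 without mouse 478 and 3 without mouse 482, and the count of 2 was 0 without mouse 478 and 1 without any of mice 476, 477, 481, 482 and 483. The calls over all genes tested were also fewer in these fits, as given above.

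Myofibroblasts share Acta2 and Tagln with smooth muscle, but they are known for the matrix they lay down. Of 15 myofibroblast and matrix genes, 8 were called higher and 1 lower, against 12.4% and 11.7% of all genes tested. The other 6 were not called. The median log2 fold change of the 15 was 1.13, and they summed to 2824 to 4056 CPM after DMSO and 6282 to 11023 CPM after ABT-263. Most of that sum came from the collagen genes Col1a1 and Col3a1. Their means were 2157 and 489 CPM after DMSO and 2995 and 3724 CPM after ABT-263. Col1a1 overlapped between groups and was not called (edgeR adjusted p = 0.196), so the sum does not measure the whole list. Col3a1, a fibrillar collagen gene, was at 643, 344, 491 and 477 CPM after DMSO and at 3676, 2128 and 5368 CPM after ABT-263. Cdh11, a cadherin of fibroblasts (log2 fold change 1.30, edgeR adjusted p = 0.0101), Lox, which cross-links collagen (1.64, adjusted p = 0.0111), and Postn, or periostin (1.56, adjusted p = 0.0268), rose as well. The gene called lower was Palld, an actin-bundling protein of stress fibres (-0.49, edgeR adjusted p = 0.0486), and limma on variance-stabilized values called 7 of the list higher and 0 lower. Beside these matrix genes, Acta2 and Tagln stayed at log2 fold changes of 0.18 and -0.01, with upper 95% limits of 0.59 and 0.51. Mouse 478, the highest of the treated mice for the contractile genes, was also the highest of them for 10 of these 15 genes and for their summed level, against 31.2% of all genes tested, while mouse 476 was the highest for 4 of the 15, Lox among them.

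Relatives of the contractile genes that other cells use gave 1 gene called higher and 2 lower of 13, with a median log2 fold change of -0.09. These counts are near the background of 12.4% called higher and 11.7% lower over all genes tested. Myh9, the non-muscle counterpart of Myh11, was at 158 ± 31.1 CPM after DMSO (SD, n = 4) and rose to 311 ± 33.5 CPM after ABT-263 (SD, n = 3), with an edgeR adjusted p of 0.0106. Myl12b, the non-muscle counterpart of Myl9, fell by 0.48 on the log2 scale (edgeR adjusted p = 0.0435), and Lmod3, the skeletal muscle leiomodin, by 0.99 (edgeR adjusted p = 0.0356). The cytoplasmic actin genes Actb (log2 fold change -0.13, edgeR adjusted p = 0.749) and Actg1 (0.56, adjusted p = 0.0672) were not called.

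**Figure D5:**
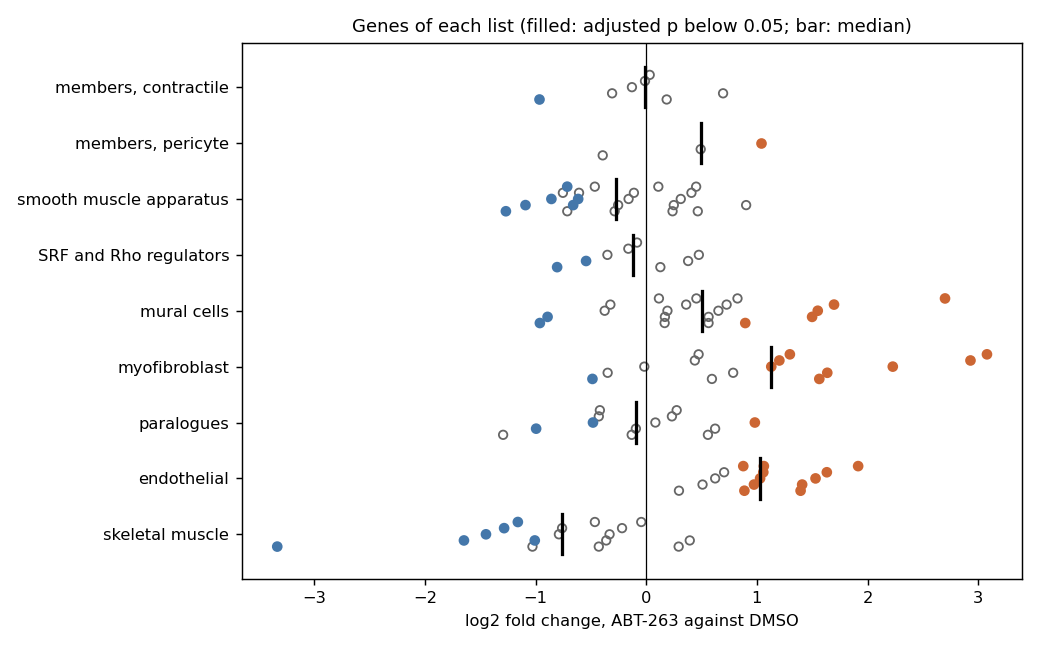
Log2 fold change (ABT-263 against DMSO, horizontal axis) of each gene in 9 lists, 1 circle per gene, filled where the adjusted p-value is below 0.05, with the median of each list as a vertical bar. The contractile genes centre near 0 (median -0.01), the endothelial genes near 1.03 and the myofibroblast genes near 1.13, and the skeletal muscle genes lie mostly below 0 (median -0.76).

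The genes with profiles most like those of Myh11 and Rgs5 over the 7 mice were found by the root mean square difference of log2 CPM, each gene centred on its own mean, among 13670 protein-coding genes. Nearest to Myh11 were Dact1 (difference 0.123), Fap (0.127), Akr1c14 (0.133), Islr (0.154) and Sorbs2 (0.165), each highest in mouse 478. Fap, a protease of activated fibroblasts, was at 7.61, 6.57, 10.7 and 10.2 CPM after DMSO and at 12.8, 10.7 and 21.8 CPM after ABT-263. All 5 were nearer to Myh11 than any of the other 9 smooth muscle and pericyte genes, of which Acta2 was the nearest (0.303) and Actg2 the farthest (0.838). Nearest to Rgs5 were Alg14 (0.0971), Apba1 (0.110), Mrc2 (0.120), Eci2 (0.134) and Mdm1 (0.138), and Acta2 (0.269) was again the nearest of the other 9. These distances describe 7 libraries and carry no test.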

How the data were processed

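Bulk polyA RNA sequencing of dorsal skin from 7 mice (4 DMSO, 3 ABT-263) was analysed. With STAR 2.7.9a the authors mapped reads to mm10, and with featureCounts (Subread 1.6.2) they counted uniquely mapped proper pairs for Ensembl genes, strand by strand and without mitochondrial genes. These counts were deposited without normalization. The authors also deposited variance-stabilized, log2-like values from DESeq2, used here for 1 alternative. Symbols and positions came from GENCODE M21 (GRCm38), which holds 55190 of 55450 identifiers and differs from the Ensembl release of the study's methods. Promoter sequences are from RefSeq.

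In R 4.3.3, counts were compared by edgeR 4.0.16 with its quasi-likelihood test (TMM, filterByExpr, robust), two-sided, with 1 library per mouse. Standard errors were derived from the F statistic. The script was tested on 3 simulations with 200 changed genes in each. Among these genes edgeR missed many, since it found between 51.5% and 59.5% of them. Between 5.93% and 8.46% of the genes that edgeR called had not been changed. DESeq2 found more, between 70% and 79.5%, but between 23.1% and 30.1% of the genes it called had not been changed. A gene that was not called here can therefore still differ between the groups. Exact permutation tests used all splits of 4 against 3 mice. Alternatives were DESeq2 1.42.0, its size factors, other filters, thinned counts, removal of length and GC trends (mgcv 1.9.3), limma 3.58.1 and leaving out each mouse. Ratios were added after seeing the data.

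The genes and lists were chosen with earlier results of these data known. Genes named beside them are up to 3 per list and direction with the smallest p-values among those called, a set of standard markers, and the 5 nearest profiles to Myh11 and to Rgs5. Some genes that this rule names are not reported here. No sample was left out of the main test, and library size sets the precision of low genes, from 89 counts in the lowest library for Cnn1.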

Additional observations from a re-analysis of the deposited data

Results flagged for a closer look

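Among 22 values examined for a DMSO-treated mouse that stands apart (a group of 3, such as the ABT-263-treated mice, is too small for this test), 1 exceeded the 95% critical value of Dixon's test, and chance gives about 1.1. It was the summed level of 9 hair follicle genes in DMSO-treated mouse 481, which reached 2432 CPM against a lowest control value of 38.7 CPM (gap divided by range 0.997). The ABT-263-treated mice 476, 477 and 478 were at 5.43, 13.3 and 437 CPM. Of these 9 genes, 1 was called lower (Shh, log2 fold change -2.58, adjusted p = 0.0457 from edgeR), against 11.7% of all genes tested. Arrector pili muscle is attached to hair follicles, and in mouse 481 the 7 contractile genes summed to 333 CPM, inside the range of the other control mice. None of the 10 smooth muscle and pericyte genes had a DMSO-treated mouse past the critical value, and the ABT-263-treated mice were not examined in this way.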

How the results depend on the processing

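Mcam was called in all 15 alternatives and Acta2, Tagln, Cnn1, Myl9, Lmod1 and Rgs5 in none of them. Of the genes that changed sign, Acta2 had a log2 fold change of -0.0203 without mouse 478 and up to 0.31 with other single mice left out, Tagln 0.0015 by the DESeq2 Wald test, 0.022 with every gene with a count, 0.0044 by limma and -0.21 to 0.16 with single mice left out, Cnn1 -0.0057 with protein-coding genes only, -0.10 with length and GC trends removed and -0.31 to 0.24 with single mice left out, and Lmod1 -0.51 to 0.17 with single mice left out. The number of the 10 genes called lower was 0 with every gene with a count and 0 with thinned counts. With single mice left out, 1 to 2 of the 10 genes were called higher and 0 to 2 lower, 0 to 1 apparatus genes were called higher and 1 to 9 lower, and 1 to 5 mural genes were called higher and 0 to 2 lower. The DESeq2 Wald test called 2 apparatus genes higher. The cause of these changes was not tested. Removal of length and GC trends moved the median log2 fold change of all genes to -0.067. Over the fits, the genes called in all ranged from 1735, without mouse 478, to 5661 by the DESeq2 Wald test, which tested 30645 genes. No paired analysis was possible because mouse numbers are not shared between the groups. Library size differed between the groups without overlap, and Myocd did not pass the expression filter of the main test.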
